A study of Pimephales promelas with 51 samples.

Results

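The concentration trend of fluticasone propionate was followed in 24 libraries of whole fathead minnow larvae, out of 51 libraries in the series, to find in which order genes and functions began to move as the concentration increased. The 24 libraries are the columns of the fluticasone propionate count table other than its 3 DMSO columns, with 3 replicates named A, B and C at each of 8 concentrations. The slope of each gene on log10 concentration was fitted in these libraries alone, so no solvent control entered the trend. The fathead minnow is a freshwater fish kept as a laboratory model in ecotoxicology. The larvae were of the strain GLTED-Duluth-wt, were aged 5 to 6 days after fertilisation, and stayed for 24 h in water that was not renewed. The groups were labelled 0.003, 0.006, 0.01, 0.019, 0.034, 0.06, 0.1 and 0.19 µM, with nominal concentrations of 0.00344, 0.005982, 0.010691, 0.019091, 0.034364, 0.059818, 0.106909 and 0.190909 µM. The measured concentrations in the same order were 0.0019, 0.0028, 0.0046, 0.0072, 0.0108, 0.0158, 0.0338 and 0.0597 µM. The 3 DMSO libraries, which the labels call a negative control, were used only to place the values. A further 9 libraries, from larvae given dexamethasone at labelled concentrations of 0.008, 0.025 and 0.08 µM, entered 1 comparison of slopes. RNA came from homogenates of pooled larvae. Nothing in the labels tells whether replicates were separate exposures, so the p-values cover the variation among libraries, which may be technical.

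Fluticasone propionate is a synthetic corticosteroid used against inflammation of the airways, and it is an agonist of the glucocorticoid receptor. The receptor rests in the cytoplasm with chaperones, moves to the nucleus when a ligand binds, and there raises or lowers the transcription of its target genes. Known responses in vertebrates include induction of the co-chaperone Fkbp5, which holds the receptor back, mobilisation of amino acids and glucose, changes in muscle and lipid metabolism, input to the circadian clock, and restraint of inflammation. In bulk RNA from whole larvae, fewer cells of a type and less RNA per cell cannot be told apart, which applies to all tissue and cell division genes described here.

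Between 1395115 and 2097358 reads per library fell in genes over the 27 libraries. Reads outside the counted features made up 22.6 to 32.1% of all reads, and 5 libraries stood apart with over 28%, namely replicates B and C at 0.019 µM, B and C at 0.034 µM and C at 0.06 µM. These libraries lie in the middle of the range, where the order of movement is read, so values without them are given beside the results that rest on them. Leaving them out keeps only replicate A at 0.019 µM and at 0.034 µM, and such a lone library is taken to vary like the other groups. Replicates of a group differed by more than sampling noise, with a chi-square per degree of freedom between 1.56 and 2.93 over the 24 pairs. Of 14 defining tissue markers, 12 were measured in all libraries, among them mylpfa of fast muscle with 1628 to 2264 CPM, rho of rods with 1097 to 1681 CPM and elavl3 of neurons with 682 to 871 CPM. Neither hbaa1 of red cells nor mpx of neutrophils was among the genes tested under these names.

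Across the whole range 279 of 17701 genes tested changed with concentration, which is 1.58% of them, 197 rising (1.11%) and 82 falling (0.463%), by edgeR's quasi-likelihood test with Benjamini-Hochberg adjustment at 0.05. A slope is the log2 change per 10-fold increase in nominal concentration and is given with its standard error. The smallest adjusted p belonged to glulb, which encodes glutamine synthetase, the enzyme that binds ammonia to glutamate. It had 767, 778 and 792 CPM in the libraries at 0.19 µM, against 396, 393 and 419 CPM at 0.003 µM, and a slope of 0.55 ± 0.047 (adjusted p = 3.42e-12). All libraries at 0.19 µM lay above all 9 libraries of the 3 lowest groups and above the DMSO libraries. The rising genes with the next smallest p-values were the S6 kinase gene rps6kb1a (0.69 ± 0.070), which acts below mTOR in growth control, the autotaxin relative enpp2l (0.47 ± 0.056), and xirp2a (0.39 ± 0.049), which encodes an actin-binding protein of muscle attachment sites. After them came mgarpb, cyp27c1, a vitamin A desaturase in zebrafish, slc7a8a, si:dkey-5i3.5, rtn3 and si:ch211-217a12.1, with slopes between 0.30 and 0.78.

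Among the falling genes the smallest p belonged to gstp1, a glutathione S-transferase of detoxification. It had 327, 285 and 290.4 CPM at 0.19 µM, against 455, 459 and 445 CPM at 0.003 µM, and a slope of -0.39 ± 0.048 (adjusted p = 1.29e-07). Its libraries at 0.19 µM lay below all 9 libraries of the 3 lowest groups. The genes after it were the intestinal bile acid binding protein fabp6 (-0.34 ± 0.052), the carboxylesterase ces3 (-0.51 ± 0.086), the apolipoprotein apom (-0.29 ± 0.053), zgc:136930 (-0.61 ± 0.099), the cytochrome P450 cyp3a65 (-0.42 ± 0.068), the chromatin protein hmgb1a (-0.24 ± 0.045), zgc:165423 (-0.36 ± 0.067), the spindle motor kifc1 (-0.71 ± 0.14) and gpx4a, which reduces lipid peroxides (-0.30 ± 0.059). All of these 10 rising and 10 falling genes stayed called when any 1 of the 24 libraries was left out. The number of genes called over the whole table was 184 without replicate B at 0.19 µM, and 139 without the lowest concentration, of which 124 were also called with it.

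**Figure D1:**
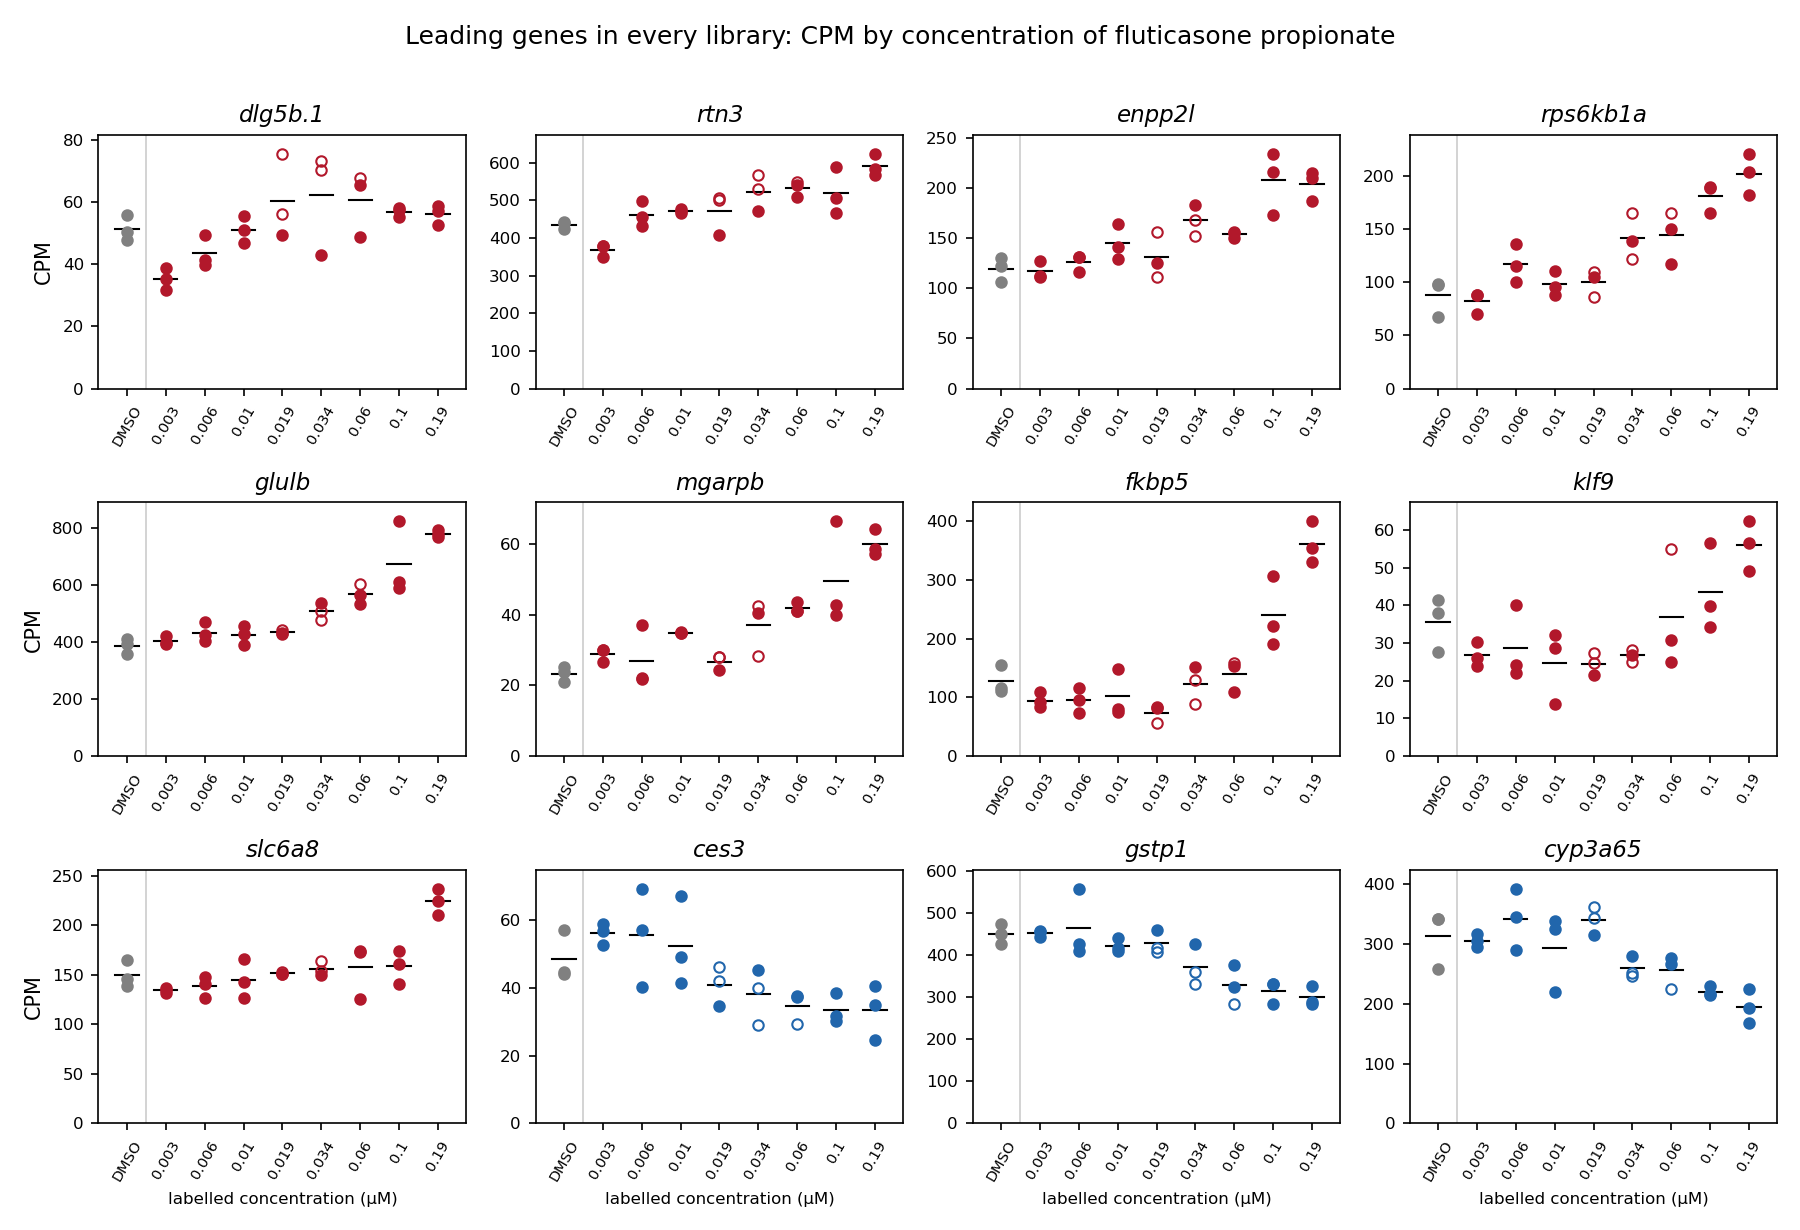
CPM of 12 genes in each library by labelled concentration of fluticasone propionate, with the 3 DMSO libraries in grey at the left; points are libraries, bars are group means, and open points mark the 5 libraries with over 28% of reads outside genes. Values of glulb, fkbp5 and slc6a8 at 0.19 µM lie above all libraries of the 3 lowest groups, and in the panels of dlg5b.1 and rtn3 the group at 0.003 µM lies below the DMSO libraries.

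The size of the movement at each concentration was taken against the mean of the 3 lowest groups (0.003, 0.006 and 0.01 µM). At 0.019, 0.034, 0.06, 0.1 and 0.19 µM the median log2 difference of the 197 rising genes was 0.036, 0.21, 0.27, 0.39 and 0.52. That of the 82 falling genes was -0.18, -0.27, -0.36, -0.50 and -0.60, beside medians of -0.0026 to 0.0047 over all genes tested. These genes were called from the same libraries, so the medians describe them and test nothing. At 0.019 µM, 119 of 197 rising genes lay above 0 and 74 of 82 falling genes lay below 0, so the falling genes stood further from the low groups. Without the 5 libraries that stood apart, the medians at 0.019 µM were 0.0072 for the rising and -0.043 for the falling genes, with 51 of 82 below 0. With a covariate for reads that fell outside genes the falling median at 0.019 µM was -0.064. The lead of the falling genes at 0.019 µM was thus smaller without replicates B and C of that group. At 0.19 µM the medians without the 5 libraries were 0.52 for the rising and -0.60 for the falling genes.

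**Figure D2:**
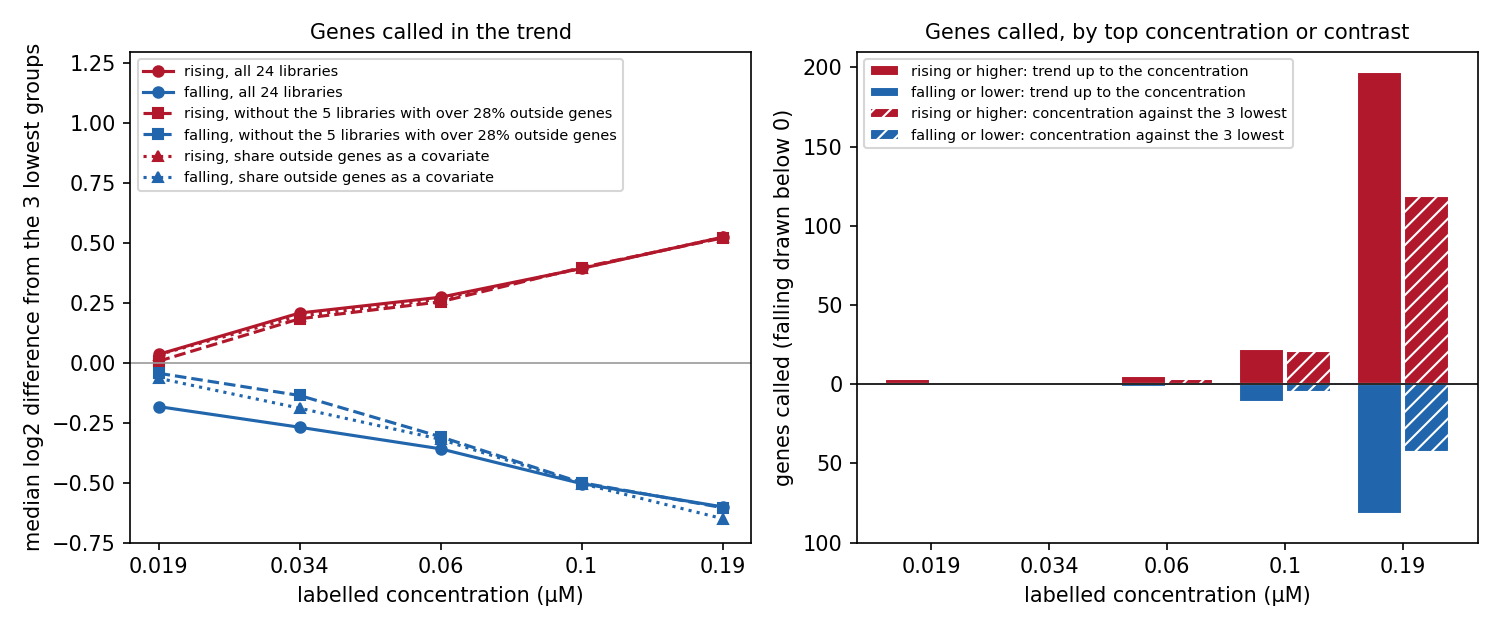
Left, median log2 difference from the 3 lowest groups of the 197 rising and 82 falling genes at each higher concentration, with all 24 libraries, without the 5 libraries that stood apart, and with a covariate for reads that fell outside genes. Right, genes called in trends that stop at each concentration and in each concentration against the 3 lowest groups, with falling genes drawn below 0; 279 and 162 genes are called at 0.19 µM, and 33 and 26 at 0.1 µM.

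The concentration by which movement could be detected was found by leaving out the top groups one after another. When the trend stopped at 0.1 µM, 33 genes were called (0.19% of those tested), 22 rising (0.127%) and 11 falling (0.0633%), and 32 of them were also called over the whole range. When it stopped at 0.06 µM, 7 genes were called (0.0406%), 5 rising (0.029%) and 2 falling (0.0116%). Of these, 6 were called in all longer ranges: glulb, rtn3, dlg5b.1 and LOC120483326, which rose, and gstp1 and LOC120478629, which fell. The remaining gene was shisa9b, which was not called over the whole range. Up to 0.06 µM the slope of glulb was 0.37 ± 0.063 (adjusted p = 0.0085) and that of gstp1 was -0.37 ± 0.076 (adjusted p = 0.0323). The endoplasmic reticulum shaping gene rtn3 had 0.36 ± 0.068 (adjusted p = 0.0135), and the scaffold gene dlg5b.1 had 0.62 ± 0.13 (adjusted p = 0.0323). No gene was called by edgeR's quasi-likelihood test when the trend stopped at 0.034 µM, where 1575 genes had an unadjusted p under 0.05 and DESeq2 called 28. With the replicate letter as a block 4 genes were called up to 0.034 µM and 14 up to 0.06 µM. At 0.019 µM 3 genes were called (0.0175%), among them fbxl15, and none of these 3 was called in a longer range. The count at 0.06 µM was 11 without the libraries of letter A and 0 without those of B or of C, and it was 2 without the 5 libraries that stood apart, so these first calls depend on few libraries.

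Against the 3 lowest groups no gene was called at 0.019 µM by edgeR's quasi-likelihood test, where 1596 genes had an unadjusted p under 0.05 and DESeq2 called 0. The contrast called 1 gene at 0.034 µM (0.00565%) and 3 genes at 0.06 µM (0.0169%). It called 26 genes at 0.1 µM (0.147%) and 162 genes at 0.19 µM (0.915%). Of the 26 genes 21 were higher (0.119%) and 5 lower (0.0282%), and of the 162 genes 119 were higher (0.672%) and 43 lower (0.243%). The gene called at 0.034 µM was APY78_gr01, an ID that neither the files nor the reference table names. It had 14781, 16078 and 18279.8 CPM at 0.034 µM, against means of 12800.3, 11888 and 11659 CPM in the 3 lowest groups, a log2 difference of 0.44 ± 0.071 (adjusted p = 0.0025), and no gene was called at 0.034 µM without the 5 libraries. In that fit, with replicate A alone left at 0.034 µM, its difference was 0.29 ± 0.099 (adjusted p = 0.9993). At 0.06 µM it was called again, with 0.72 ± 0.070, together with glulb (0.43 ± 0.079, adjusted p = 0.0128) and rps6kb1a (0.56 ± 0.11, adjusted p = 0.0384). At 0.034 µM rps6kb1a already differed by 0.53 ± 0.11, near its value at 0.06 µM, but did not pass the test (adjusted p = 0.099). At 0.1 µM the named genes called were glulb, rps6kb1a, enpp2l, xirp2a, mgarpb, cyp27c1, slc7a8a, si:dkey-5i3.5, fkbp5, chac1, stk35, pfkfb4b and hlfa, which were higher, and gstp1, apom and cyp3a65, which were lower. The receptor's feedback gene fkbp5 thus passed the test at 0.1 µM, with an adjusted p of 0.0132, and had a difference of 0.53 ± 0.22 at 0.06 µM (adjusted p = 0.742).

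The order of genes was described by a midpoint, the nominal concentration at which a monotone curve through the 8 group means first covered 50% of its whole change. Its range is given over the fits that leave out each replicate letter. No test was made of it, and it was read for 192 rising and 82 falling called genes whose fitted change was at least 0.3 on the log2 scale. The order of a pair of genes was read only where their ranges do not overlap. Each range comes from few fits that share libraries. It is no confidence interval, and an order read from it is a description. Some midpoints left their range without the 5 libraries that stood apart. That of mgarpb was then 0.0352 µM (range 0.0496 to 0.0604) and that of pnpla3 0.0185 µM (0.0497 to 0.0719). The median midpoint was 0.0444 µM for the rising genes and 0.0323 µM for the falling genes. Without the 5 libraries the medians were 0.0412 µM for the rising and 0.0489 µM for the falling genes, so the order of the directions turned round and none was read. Among the rising genes 18 had a midpoint below the nominal concentration of the 0.01 µM group, 62 between those of the 0.01 and 0.034 µM groups, 46 between those of 0.034 and 0.06 µM, and 66 above that of 0.06 µM. For the median rising gene the highest value of the range was 1.80 times the lowest, and for the median falling gene 2.31 times.

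A sequence of rising genes was picked because their ranges do not overlap, and it orders midpoints rather than first detection. First came the growth kinase rps6kb1a, with a midpoint of 0.0286 µM (range 0.0265 to 0.0308), then the muscle gene xirp2a with 0.0382 µM (0.0357 to 0.0394). They were followed by glulb with 0.0570 µM (0.0540 to 0.0626) and fkbp5 with 0.0793 µM (0.0709 to 0.0872), and last by the creatine transporter gene slc6a8 with 0.125 µM (0.114 to 0.130). Without the 5 libraries these genes stood at 0.0301, 0.0440, 0.0638, 0.0801 and 0.125 µM, in the same order. The values of xirp2a and glulb then lay outside their ranges. Detection gave another order. The trend up to 0.06 µM called glulb but not rps6kb1a or xirp2a, which were called up to 0.1 µM. Against the 3 lowest groups glulb and rps6kb1a were both called at 0.06 µM. All libraries lay above those of the 3 lowest groups from 0.034 µM on for glulb, 0.06 µM for xirp2a and 0.1 µM for rps6kb1a. The means of rps6kb1a over the 8 groups, low to high, were 82.0, 117, 98.2, 101, 142, 144, 181 and 202 CPM. They stepped up after the lowest group and again at 0.034 µM, followed by a further rise. Of its fitted change 27.3% lay between the lowest group and the next, so low values in the lowest group entered its midpoint. The DMSO libraries had 98.2, 67.5 and 97.4 CPM of rps6kb1a, which overlap the lowest group. Its midpoint without the lowest group was not tested. The group means of glulb were 403, 432, 424, 433, 507, 566, 674 and 779 CPM, level up to 0.019 µM and higher at each later step. For slc6a8 the first 7 means lay between 134 and 159 CPM, and the libraries at 0.19 µM had 211, 237 and 225 CPM, above all other libraries. Its difference from the 3 lowest groups was 0.19 ± 0.096 at 0.1 µM (adjusted p = 0.675) and 0.69 ± 0.090 at 0.19 µM (adjusted p = 2.60e-06).

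**Figure D3:**
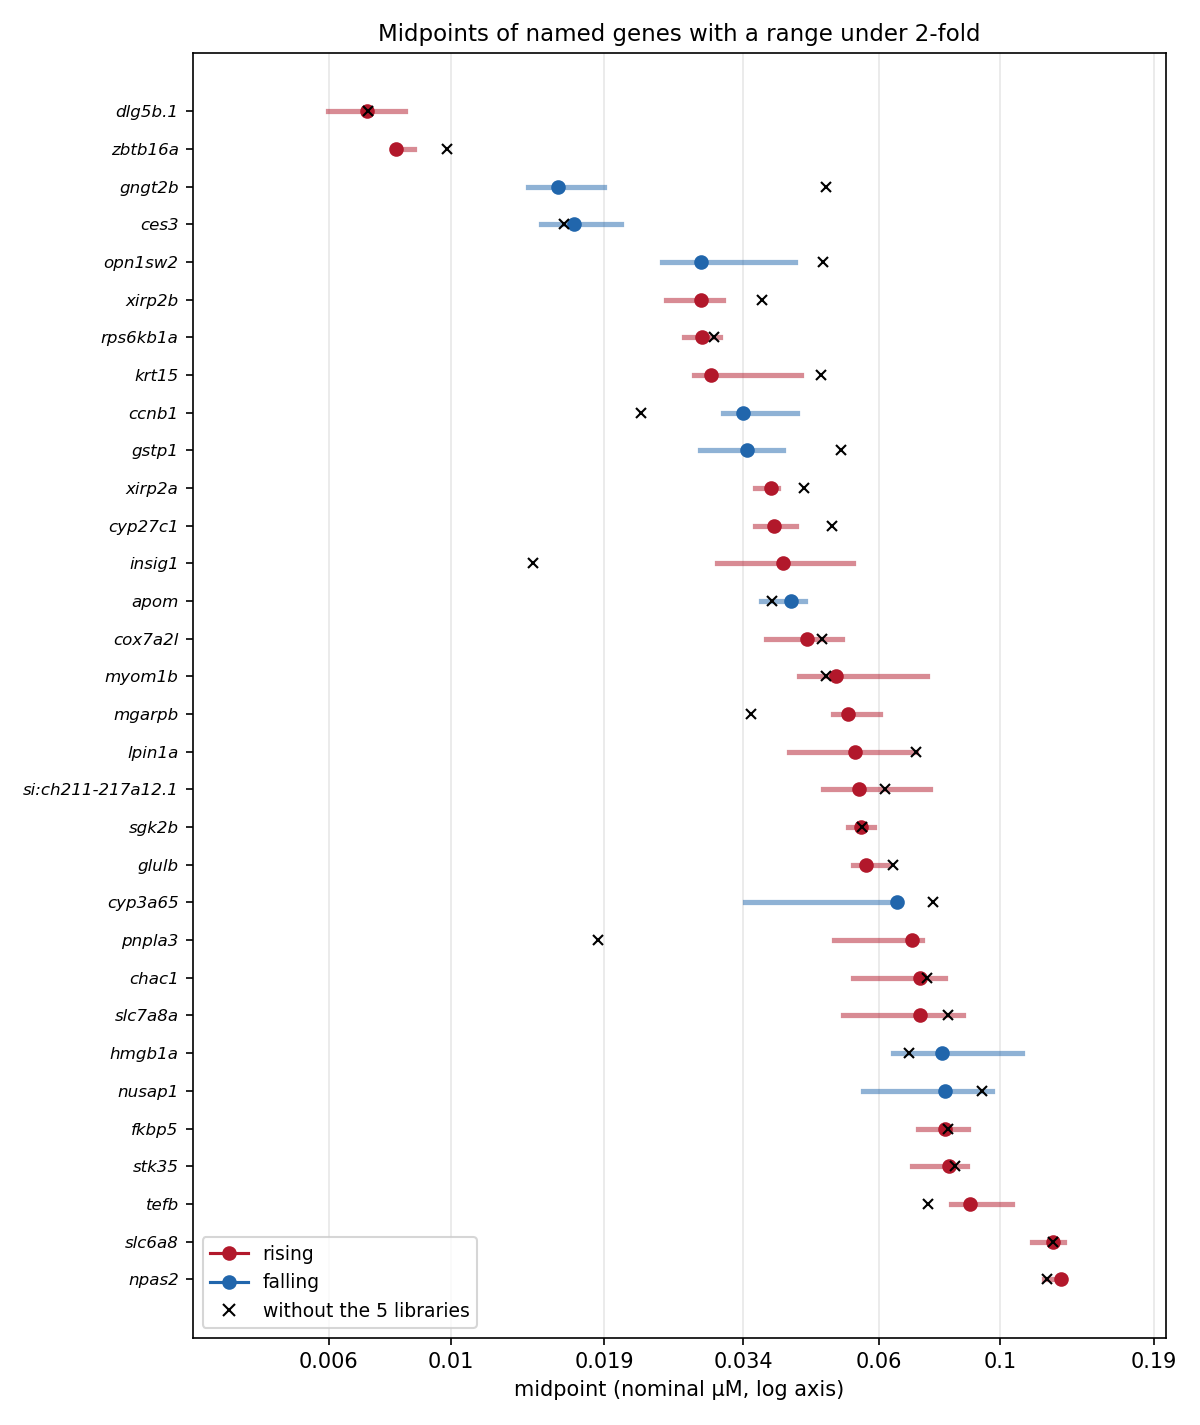
Midpoint of each named gene whose range over leaving out replicate letters spans less than 2-fold, on a log axis of nominal concentration; dots are midpoints with all 24 libraries, bars are the ranges, and crosses are midpoints without the 5 libraries that stood apart. The bars of rps6kb1a, xirp2a, glulb, fkbp5 and slc6a8 follow each other without overlap, and the crosses of some genes, such as gngt2b, gstp1 and pnpla3, lie outside their bars.

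The 18 rising genes with the lowest midpoints moved within the 3 lowest groups. They included dlg5b.1 at 0.00704 µM (0.00598 to 0.00827), zbtb16a, a transcription factor gene known as PLZF in mammals, at 0.00796 µM (0.00784 to 0.00856), rtn3 at 0.00827 µM (0.00567 to 0.0205) and the hexokinase gene hk1 at 0.0104 µM (0.00951 to 0.0661). Without the 5 libraries they stood at 0.00706, 0.00986, 0.0304 and 0.0107 µM, so the low place of rtn3 did not hold. The libraries at 0.006 µM had 499, 455 and 432 CPM of rtn3, against 350.4, 378 and 378 CPM at 0.003 µM, and the DMSO libraries had 439, 442 and 423 CPM. The 0.003 µM libraries were below both other groups, which overlap. For dlg5b.1 the libraries at 0.01 µM had 55.4, 51.0 and 46.7 CPM, against 38.9, 31.6 and 35.2 CPM at 0.003 µM, and the DMSO libraries had 55.9, 47.7 and 50.4 CPM. Here too the 0.003 µM libraries lay below those of both other groups. Of the 18 genes, 17 had a mean at 0.003 µM below the DMSO mean, against 49.1% of all genes tested. The other rising genes did likewise, in 54 of 62, 38 of 46 and 51 of 66 genes with midpoints from 0.01 to 0.034 µM, from 0.034 to 0.06 µM and above 0.06 µM. The libraries at 0.003 µM entered both the slopes and the midpoints, so low values there follow in part from the choice of these genes. The share over all genes tested is thus not a like reference. Without the lowest concentration 1 of the 18 was still called, rtn3, with a slope of 0.22 (adjusted p = 0.0281), beside 41 of the 66 rising genes with midpoints above 0.06 µM. The slopes of the others named were 0.19 for zbtb16a (adjusted p = 0.249), 0.35 for hk1 (adjusted p = 0.166) and 0.19 for dlg5b.1 (adjusted p = 0.535). The 18 genes were grouped by a change near the lowest concentration, which that fit leaves out. The count of 1 of 18 beside 41 of 66 was thus largely set by the grouping and tests nothing. The call of dlg5b.1 was also lost without replicate B at 0.003 µM (adjusted p = 0.102), and in 4 of the 24 fits that leave out 1 library.

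The same holds in part for the whole set of called genes. The median log2 difference of the 197 rising genes from DMSO was -0.15, -0.063, -0.025, -0.025, 0.11, 0.17, 0.32 and 0.44 at the 8 concentrations, low to high. That of the 82 falling genes was 0.091, 0.071, 0.040, -0.11, -0.20, -0.31, -0.49 and -0.53. At 0.003 µM the called genes thus lay, in the median, on the far side of DMSO from where they ended, and at 0.034 µM and above on the side of their slope. The slopes were fitted to these same libraries, so both ends follow in part from the call. All 3 libraries at 0.19 µM lay above all 3 DMSO libraries for 149 of 197 rising genes, beside 7.41% of all genes tested, and below them for 57 of 82 falling genes, beside 6.3%. The mean at 0.19 µM was beyond the DMSO mean in the direction of the slope for all 279 genes, whereas over all genes tested 50.4% had it above the DMSO mean. These genes were called with the same libraries at 0.19 µM. Their place beyond DMSO thus follows in part from the call and is no separate support for it. All 3 libraries at 0.19 µM lay beyond all 9 of the 3 lowest groups for 112 of 197 rising genes, beside 1.8% of all genes, and for 39 of 82 falling genes, beside 1.01%, which follows in part from the call itself. This separation from the 9 low libraries began at 0.034 µM and held at all higher groups for 3 rising genes, APY78_gr01, glulb and osbpl6. They are all of the genes tested that were higher from there on (0.0169%). It began at 0.06 µM for 6 rising genes, xirp2a, mgarpb, sgk2b, cox17, stc2b and clul1. With the 3 genes before them they are all 9 genes tested that were higher from 0.06 µM or a lower group on (0.0508%). It also began at 0.06 µM for 10 falling genes, among them apom, gstp1, gngt2b, rcvrn2 and zgc:136930, out of 13 genes tested that were lower (0.0734%). These shares hold the called genes themselves and are no separate background. The libraries of osbpl6 and clul1 at 0.19 µM were not all above the DMSO libraries. The genes osbpl6, cox17, stc2b and clul1, and shisa9b, fbxl15, the LOC genes and the APY78 IDs above, fall outside the rule for named genes and were chosen after their values were seen.

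The shape of the trend was described with a quadratic term. By edgeR's quasi-likelihood test 1 gene was called for curvature (0.00565%), the unnamed ID APY78_gr02, while 1639 genes had an unadjusted p under 0.05. The term was above 0, meaning a steeper rise at high concentrations, for 138 of 197 rising genes, and below 0, a steeper fall there, for 61 of 82 falling genes, beside 8827 of 17701 above 0 over all genes tested. Of the rising genes with an unadjusted p under 0.05 for this term, 44 had a positive and 2 a negative sign.

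Functions were ordered in the same way, by the midpoint of the mean profile of each list, read only where the profile changed by at least 0.1 on the log2 scale, which held for 24 lists. Xenobiotic metabolism, with a falling profile, had its midpoint at 0.0427 µM (0.0413 to 0.0462), and muscle stress and growth sensors, with a rising profile, at 0.0431 µM (0.0399 to 0.0478). Lipid droplets and fatty acid oxidation followed at 0.0684 µM (0.0579 to 0.0766) and the glucocorticoid receptor targets at 0.0776 µM (0.0629 to 0.0891), with ranges above those of both lists before them. Glutamine and ammonia handling stood at 0.0979 µM (0.0876 to 0.114), above lipid droplets but overlapping the receptor targets. This is the place of the mean profile, in which 17 of 19 members were not called. Its called members stood lower, glulb at 0.0570 µM (0.0540 to 0.0626) and rhcga at 0.0283 µM (0.0201 to 0.0599). The neurons list came after all of these lists except glutamine handling, at 0.123 µM (0.108 to 0.129). Of its 32 members 30 were not called. Its 1 rising called member, syn1, had a midpoint of 0.0199 µM (0.00971 to 0.0249), below the list, and the other called member, stmn1a, fell. Of the 18 muscle stress members 15 were not called, and 33.6% of the change of their profile lay between 0.003 and 0.006 µM. Low values at 0.003 µM thus entered the place of this list. Its median difference from the 3 lowest groups was 0.14 at 0.06 µM, 0.060 at 0.1 µM and 0.13 at 0.19 µM. Without the 5 libraries the lists placed here stood at 0.0348, 0.0391, 0.0605, 0.0865, 0.0987 and 0.112 µM, in the same order. Those of xenobiotic metabolism and muscle stress then lay below their ranges. All these lists were picked for their narrow ranges. Late lists left out of this order, with no called member, were the methionine cycle at 0.125 µM (0.0960 to 0.139) and inflammation and NF-kB at 0.142 µM (0.135 to 0.143). Without the 5 libraries they stood at 0.126 and 0.134 µM, where the inflammation profile changed by 0.097, under the limit of 0.1. Some other lists did not keep their place. The midpoint of heat shock proteins and chaperones was 0.0717 µM with all libraries and 0.0274 µM without the 5, and that of the creatine system 0.0788 and 0.0638 µM, which moved it from after the receptor targets to before them. The ranges of insulin and mTOR signalling, glycolysis, and gluconeogenesis and amino acid catabolism overlap that of the receptor targets. Falling tissue lists at the low end moved as well. That of liver plasma proteins was 0.0146 µM with all libraries and 0.0256 µM without the 5, that of lens crystallins 0.0108 and 0.0415 µM, and that of gut lipid and bile acid handling 0.0118 and 0.102 µM.

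**Figure D4:**
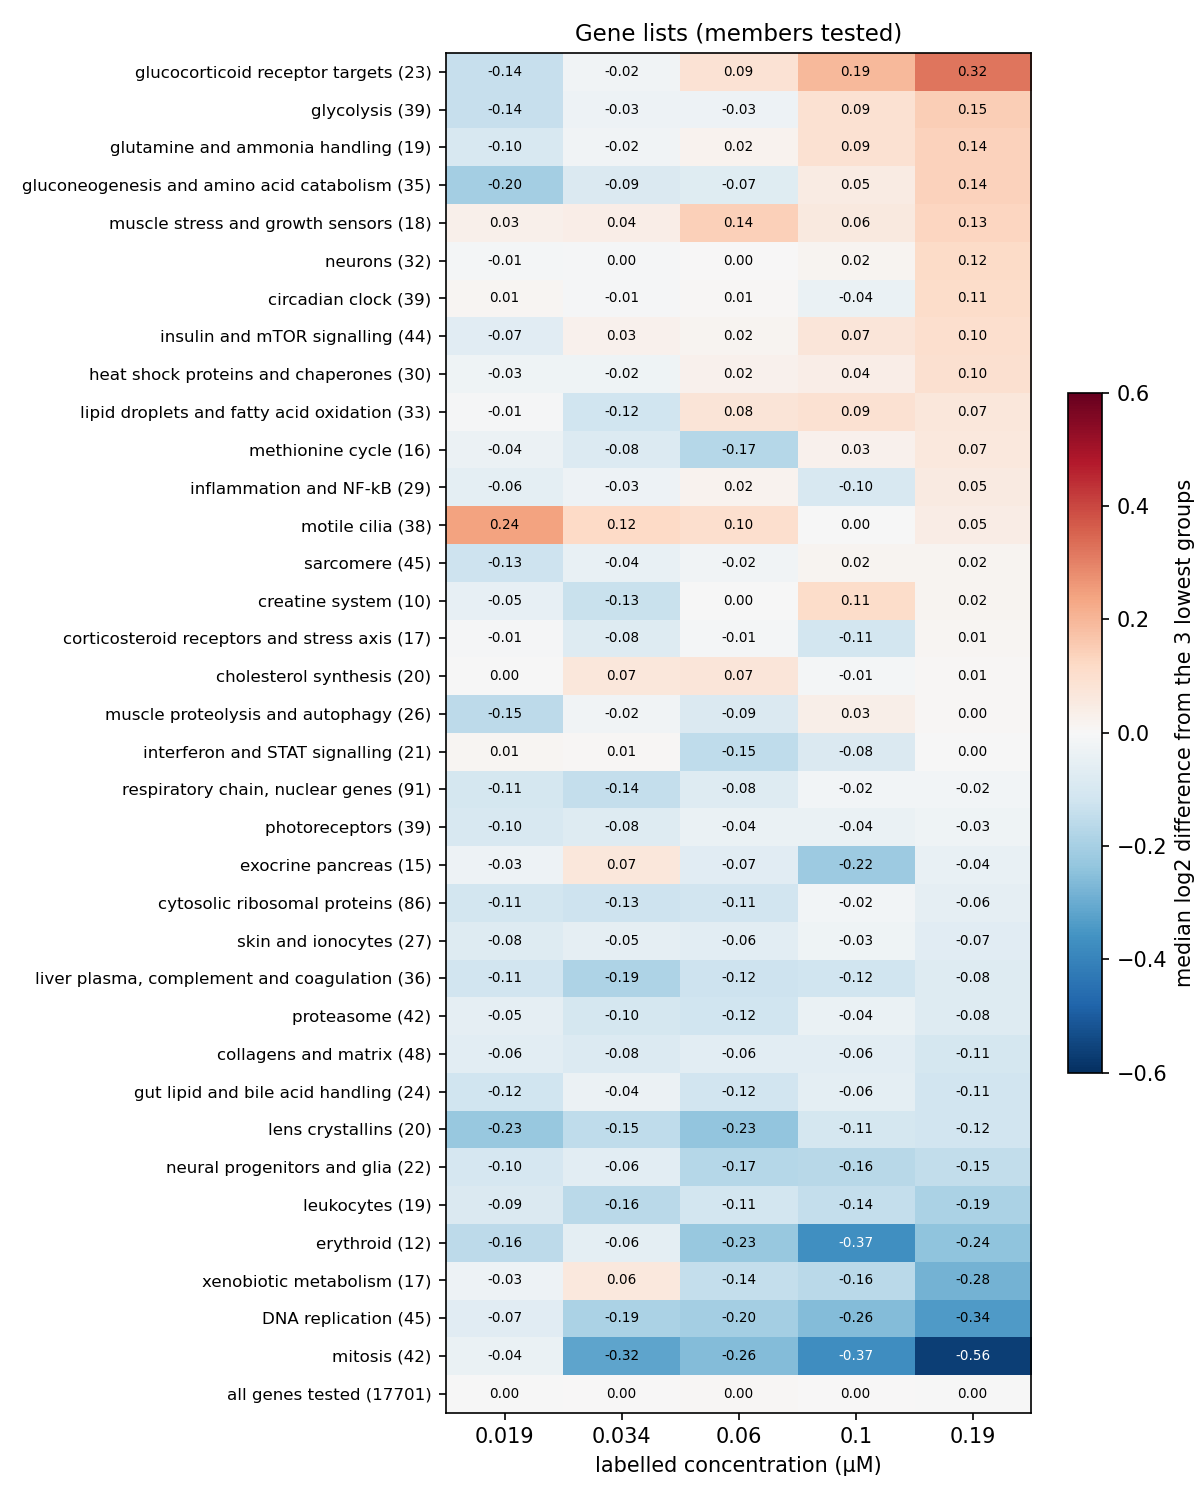
Median log2 difference from the 3 lowest groups over the members of each list (rows, with the number tested) at the 5 higher labelled concentrations (columns), with all genes tested in the last row. The receptor targets reach 0.32 and the mitosis genes -0.56 at 0.19 µM; some lists with no called member also lie away from 0 at 0.019 µM, where 2 of the 3 libraries stood apart.

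Some genes listed as known targets of the receptor rose, and all called ones but zbtb16a had midpoints from 0.0543 to 0.0793 µM. Of 23 genes on the list 6 rose, none fell and 17 were not called, beside 1.11% of all genes rising. The median slope of the list was 0.19, against -0.0029 over all genes tested, and its median difference from the 3 lowest groups was -0.14, -0.021, 0.087, 0.19 and 0.32 at the 5 higher concentrations. The steepest called member was fkbp5, with 329.9, 355 and 400.1 CPM at 0.19 µM, against 109, 82.7 and 91.3 CPM at 0.003 µM and 115, 155 and 111 CPM in DMSO, a slope of 1.14 ± 0.16 (adjusted p = 0.000315). At 0.06 µM its values of 153, 109.7 and 158 CPM still overlapped the DMSO libraries, and at 0.1 µM they were 190.3, 222 and 306 CPM and lay above them. The transcription factor gene klf9 had 49.1, 56.6 and 62.3 CPM at 0.19 µM, against 23.8, 30.2 and 26.0 CPM at 0.003 µM, with a slope of 0.64 ± 0.13 (adjusted p = 0.00415) and a midpoint of 0.0754 µM (0.0514 to 0.104). All 3 values at 0.19 µM lay above DMSO and all 9 low libraries. The leucine zipper gene tsc22d3, called GILZ in mammals, had a slope of 0.29 ± 0.059 (adjusted p = 0.00377) and a midpoint of 0.0567 µM (0.0510 to 0.110). The phosphatidate phosphatase gene lpin1a had 24.6, 21.9 and 17.6 CPM at 0.19 µM, against 8.15, 6.47 and 13.3 CPM at 0.003 µM, with a slope of 0.63 ± 0.16 (adjusted p = 0.0251), and its lowest value at 0.19 µM lay within the 9 low libraries. The clock repressor gene per1a had a slope of 0.40 ± 0.10 (adjusted p = 0.022). The calls of lpin1a and per1a were lost without single libraries: the adjusted p was 0.0978 for lpin1a without replicate A at 0.19 µM, with the call lost in 5 of 24 fits and without the lowest concentration (0.0822), and 0.076 for per1a without replicate C at 0.19 µM, lost in 2. The range of zbtb16a lies below those of the 5 other called targets. The call of zbtb16a was lost without the lowest concentration (adjusted p = 0.249). The libraries of zbtb16a and per1a at 0.19 µM were not all above the DMSO libraries, whereas those of fkbp5, klf9, tsc22d3 and lpin1a were.

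Other well-known targets did not pass the test. Their slopes were 0.60 ± 0.21 for the mTOR inhibitor ddit4, 0.23 ± 0.076 for cebpb, 0.21 ± 0.093 for cebpd, 0.22 ± 0.11 for the MAP kinase phosphatase dusp1, 0.19 ± 0.12 for the cortisol-inactivating enzyme hsd11b2, -0.14 ± 0.12 for the NF-kB inhibitor nfkbiaa, 0.039 ± 0.063 for per1b and -0.023 ± 0.097 for sgk1. The slope of ddit4 was thus nearly as large as that of klf9 but came with a larger standard error. The remaining 9 members had slopes between -0.33 for bcl6ab and 0.22 for errfi1a. On the list of corticosteroid receptors and the stress axis 1 of 17 genes rose, beside 1.11% of all genes rising. This was the kinase gene sgk2b, which is related to sgk1. It had 23.4, 25.4 and 33.6 CPM at 0.19 µM, against 12.5, 12.2 and 12.1 CPM at 0.003 µM, a slope of 0.70 ± 0.11 (adjusted p = 0.000111) and a midpoint of 0.0557 µM (0.0529 to 0.0588), without overlap between the groups. On the list of inflammation and NF-kB none of 29 genes was called and the median slope was 0.027, and none of 21 genes of interferon and STAT signalling was called, with a median of -0.061.

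In nitrogen and growth metabolism few genes rose. Of 19 genes of glutamine and ammonia handling 2 rose and none fell, beside 1.11% of all genes rising: glulb and the ammonia channel gene rhcga. The libraries at 0.19 µM had 56.7, 41.0 and 49.5 CPM of rhcga, against 36.4, 28.8 and 22.0 CPM at 0.003 µM, and its slope was 0.61 ± 0.15 (adjusted p = 0.0311, and 0.0559 without the 5 libraries). The groups do not overlap, but the adjusted p was 0.092 without replicate A at 0.19 µM. Of 44 genes of insulin and mTOR signalling 2 rose, beside 1.11% of all genes rising: rps6kb1a and foxo3b, a transcription factor that insulin signalling restrains. The slope of foxo3b was 0.21 ± 0.054 (adjusted p = 0.026). Its adjusted p was 0.132 without replicate A at 0.19 µM and 0.155 without the lowest concentration. The call of foxo3b was lost in 6 of the 24 fits that leave out 1 library. The libraries at 0.19 µM had 221, 182 and 204 CPM of rps6kb1a and those at 0.034 µM had 139, 122 and 165 CPM, against 87.8, 69.8 and 88.4 CPM at 0.003 µM. All libraries at 0.034 µM were above those at 0.003 µM but overlapped those at 0.006 µM. Outside the lists the neutral amino acid transporter gene slc7a8a had 205, 148 and 192 CPM at 0.19 µM, against 129, 105 and 118 CPM at 0.003 µM, with a midpoint of 0.0714 µM (0.0516 to 0.0853). The glutathione-degrading enzyme gene chac1 had 232, 188 and 250.4 CPM at 0.19 µM, against 134, 90.6 and 135 CPM at 0.003 µM, a slope of 0.51 ± 0.099 (adjusted p = 0.00719) and a midpoint of 0.0714 µM (0.0538 to 0.0793). In both genes the groups do not overlap.

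In carbohydrate and lipid metabolism genes moved in both directions. The counts below stand beside 1.11% of all genes tested rising and 0.463% falling. Of 39 glycolysis genes 2 rose and 1 fell: hk1 (0.39 ± 0.094, adjusted p = 0.0142), pfkfb4b, whose enzyme makes the activator of phosphofructokinase (0.73 ± 0.16, adjusted p = 0.00733), and the lactate dehydrogenase gene ldhbb (-0.48 ± 0.10, adjusted p = 0.00415). None of 35 genes of gluconeogenesis and amino acid catabolism and none of 16 of the methionine cycle was called. In the creatine system 1 of 10 genes rose, slc6a8. Of 33 genes on the list of lipid droplets and fatty acid oxidation 3 rose, enpp2l, lpin1a and the lipid droplet enzyme gene pnpla3 (0.44 ± 0.080, adjusted p = 0.000514). The list counts enpp2l, an autotaxin relative, whose part in lipid droplets or fatty acid oxidation was not examined. The libraries at 0.19 µM had 215, 187 and 209.9 CPM of enpp2l, against 127, 111 and 113 CPM at 0.003 µM, and its midpoint of 0.0301 µM had a wide range (0.0267 to 0.0602). Of 20 cholesterol synthesis genes 1 rose, insig1, which holds back sterol synthesis (0.41 ± 0.10, adjusted p = 0.0426), and its call was lost in 14 of the 24 fits that leave out 1 library, with an adjusted p of 0.131 without replicate A at 0.19 µM and 0.278 without the lowest concentration.

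Muscle genes moved in small part. Of 18 genes on the list of muscle stress and growth sensors 3 rose and none fell, beside 1.11% of all genes rising, namely xirp2a, xirp2b and ankrd1b, which encodes an ankyrin repeat protein of the sarcomere. The values of xirp2a were 204, 213 and 228 CPM at 0.19 µM, against 115, 153 and 139.8 CPM at 0.003 µM and 163, 152 and 155 CPM in DMSO, and all 9 libraries from 0.06 to 0.19 µM were above the DMSO libraries. The slope of xirp2b was 0.26 ± 0.051 (adjusted p = 0.00216) with a midpoint of 0.0285 µM (0.0246 to 0.0313), and that of ankrd1b was 0.53 ± 0.12 (adjusted p = 0.011, and 0.0572 without the lowest concentration). Of 45 sarcomere genes 3 rose: myom1b of the M-band (0.25 ± 0.057), the titin gene ttn.1 (0.19 ± 0.043) and the slow troponin gene tnnt1 (0.29 ± 0.069). The call of ttn.1 was lost without replicate B at 0.19 µM (adjusted p = 0.0615), and that of tnnt1 without replicate C at 0.19 µM (adjusted p = 0.0535) and without the lowest concentration (0.0645). The summed level of the sarcomere list was 79429 to 82003 CPM at 0.19 µM, against 79178 to 81599 CPM at 0.003 µM, which overlap. Of 26 genes of muscle proteolysis and autophagy 1 rose, the ubiquitin peptidase gene usp2b (0.31 ± 0.085, adjusted p = 0.0474), whose call was lost in 15 of the 24 fits, with an adjusted p of 0.147 without replicate A at 0.19 µM and 0.305 without the lowest concentration.

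A few genes of cell division fell. Of 42 mitosis genes 3 fell and none rose, beside 0.463% of all genes falling. Of the 42 slopes 41 were below 0, beside 9023 of 17701 over all genes tested, with a median of -0.31. The cyclin gene ccnb1, which drives entry into mitosis, had 7.02, 4.04 and 3.73 CPM at 0.19 µM, against 8.15, 22.3 and 10.96 CPM at 0.003 µM, and a slope of -0.79 ± 0.17 (adjusted p = 0.00462). The groups do not overlap, although the values are low. The spindle genes nusap1 (-0.49 ± 0.12, adjusted p = 0.013) and kif20a (-0.43 ± 0.12, adjusted p = 0.0386) fell as well. The adjusted p of nusap1 was 0.0564 without replicate B at 0.19 µM, and that of kif20a was 0.125 without replicate B at 0.003 µM, with its call lost in 12 of 24 fits. Outside the list the spindle motor gene kifc1 had 8.77, 7.51 and 10.7 CPM at 0.19 µM, against 25.7, 20.1 and 17.9 CPM at 0.003 µM, and its highest library at 0.19 µM lies within the 9 libraries of the 3 lowest groups. Of 45 DNA replication genes none was called, 42 slopes were below 0 and the median was -0.22. The mean profiles of both lists varied among replicates of a low group. From the mean of the 3 lowest groups, that of DNA replication differed by -0.33, 0.36 and -0.19 in A, B and C at 0.006 µM. At 0.19 µM it differed by -0.16, -0.31 and -0.50, which overlap. The mitosis profile differed by -0.32, 0.36 and -0.29 at 0.006 µM and by -0.39, -0.45 and -0.52 at 0.19 µM. The median difference of the mitosis genes from the 3 lowest groups was -0.039, -0.32, -0.26, -0.37 and -0.56, low to high. The midpoint of their mean profile was 0.0612 µM, but its range of 0.0258 to 0.0771 µM overlaps those of the receptor targets and of muscle stress, and without the 5 libraries it was 0.0331 µM, so no order was read between cell division and these lists.

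A few detoxification and gut genes fell. Of 17 genes of xenobiotic metabolism 4 fell and none rose, beside 0.463% of all genes falling: gstp1, cyp3a65, whose family oxidises drugs and steroids, ces3, and the export pump gene abcc2 (-0.26 ± 0.067). The libraries at 0.19 µM had 193, 224 and 168 CPM of cyp3a65, against 305, 316 and 295 CPM at 0.003 µM, and 35.1, 40.4 and 24.5 CPM of ces3, against 52.7, 56.8 and 58.9 CPM at 0.003 µM. In both genes these groups do not overlap, but the highest library at 0.19 µM lies within the 9 libraries of the 3 lowest groups. The midpoint of ces3 was 0.0167 µM (0.0146 to 0.0204) and came before that of cyp3a65, at 0.0647 µM (0.0342 to 0.0660), and without the 5 libraries they stood at 0.0161 and 0.0752 µM. That of gstp1 was 0.0345 µM (0.0284 to 0.0402) and 0.0512 µM without them. The adjusted p of abcc2 was 0.029, and 0.135 without replicate C at 0.19 µM. Of 24 genes of gut lipid and bile acid handling 2 fell, fabp6 and apom. The values of fabp6 were 124, 126 and 141 CPM at 0.19 µM, against 213, 208 and 203 CPM at 0.003 µM and 202, 196 and 199 CPM in DMSO. All its libraries at 0.19 µM lay below both. The midpoint of apom was 0.0416 µM (0.0366 to 0.0442), whereas that of fabp6 had a range of 0.0159 to 0.100 µM, too wide to be placed.

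Few clock genes moved. Of 39 circadian clock genes 4 rose and none fell, beside 1.11% of all genes rising: hlfa and tefb, output transcription factors of the PAR bZIP family, per1a, and npas2, a partner of the clock activator Bmal1. The values of npas2 were 70.8, 75.1 and 83.6 CPM at 0.19 µM, against 55.2, 50.3 and 39.9 CPM at 0.003 µM, and the means of the other 7 groups lay between 44.2 and 54.1 CPM. The midpoint of hlfa was 0.0230 µM (0.00568 to 0.0277), that of per1a 0.0587 µM (0.0281 to 0.0633), that of tefb 0.0882 µM (0.0813 to 0.105) and that of npas2 0.129 µM (0.120 to 0.129), 4 ranges that do not overlap. Without the 5 libraries these genes stood at 0.0234, 0.0584, 0.0737 and 0.121 µM, where the value of tefb lay below its range. The slopes were 0.25 ± 0.045 for hlfa (adjusted p = 0.000371), 0.23 ± 0.062 for tefb (adjusted p = 0.045) and 0.31 ± 0.076 for npas2 (adjusted p = 0.0189). Without replicate C at 0.19 µM the adjusted p of npas2 was 0.139, and without replicate A at 0.19 µM that of tefb was 0.161, whose call was lost in 15 of 24 fits.

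Tissue lists held few called genes. Of 39 photoreceptor genes 3 fell, beside 0.463% of all genes falling: the recoverin gene rcvrn2 (-0.24 ± 0.052), the cone opsin gene opn1sw2 (-0.22 ± 0.057) and the cone transducin gene gngt2b (-0.25 ± 0.065). All 3 calls were lost without the lowest concentration, with adjusted p-values of 0.0613, 0.0669 and 0.156. The summed level of the list was 4972 to 5297 CPM at 0.19 µM, against 4855 to 5443 CPM at 0.003 µM, which overlap. Of 36 genes of liver plasma proteins, complement and coagulation 2 fell, ahsg1 (-0.36 ± 0.075) and ambp (-0.23 ± 0.058), with a summed level of 3851 to 4581 CPM at 0.19 µM, against 4172 to 4331 CPM at 0.003 µM. Of 48 genes of collagens and matrix the protease gene mmp14b fell (-0.32 ± 0.079), of 22 of neural progenitors and glia the neuronal transcription factor gene neurod1 fell (-0.23 ± 0.059), and of 27 of skin and ionocytes the keratin gene krt15 rose (0.24 ± 0.057). Of 32 neuronal genes the synapsin gene syn1 rose (0.21 ± 0.059) and the stathmin gene stmn1a fell (-0.34 ± 0.086). Both calls were lost without the 5 libraries that stood apart, with adjusted p-values of 0.0613 for syn1 and 0.1 for stmn1a, and without the lowest concentration, with 0.152 and 0.176. The calls of ambp (0.174), mmp14b (0.141) and neurod1 (0.0893) were also lost without the lowest concentration. Of these, the calls of opn1sw2, gngt2b, ambp, mmp14b, neurod1, syn1 and stmn1a were lost in 4, 18, 2, 3, 3, 19 and 9 of the 24 fits that leave out 1 library, with adjusted p-values up to 0.144, for syn1 without replicate B at 0.19 µM. Of 91 nuclear genes of the respiratory chain cox7a2l rose (0.24 ± 0.051), a share near the 1.11% of all genes, and of 30 heat shock proteins and chaperones fkbp5 rose. None was called among 20 lens crystallins, 15 exocrine pancreas genes, 12 erythroid and 19 leukocyte genes, 86 cytosolic ribosomal proteins, 42 genes of the proteasome and 38 of motile cilia. Whether a change in tissue shares took part in these values was not tested.

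The trend was set beside that of dexamethasone where both compounds were measured at like concentrations. Both are fluorinated corticosteroids, and fluticasone propionate has in addition an esterified propionate and a fluoromethyl thioester. The 15 libraries labelled 0.019 to 0.19 µM had measured concentrations of 0.0072 to 0.0597 µM, and the 9 dexamethasone libraries had 0.0066, 0.0189 and 0.055 µM. By edgeR's quasi-likelihood test the slope on log10 measured concentration differed between the compounds for 38 of 17660 genes (0.215%), 30 with a higher slope (0.17%) and 8 with a lower slope (0.0453%) for fluticasone propionate. Within this range 131 genes had a called slope with fluticasone propionate, and none with dexamethasone, where 694 genes had an unadjusted p under 0.05. The dexamethasone slopes rest on 9 libraries beside 15, so the counts were not made with like power. Higher dexamethasone concentrations of the series did not enter, and the count of none holds for this range only. Among the named genes the difference was largest upward for fkbp5, with a slope of 2.33 ± 0.18 for fluticasone propionate and -0.47 ± 0.23 for dexamethasone, a difference of 2.80 ± 0.29 (adjusted p = 8.71e-06). For glulb the slopes were 0.89 ± 0.098 for fluticasone propionate and -0.013 ± 0.12 for dexamethasone, a difference of 0.90 ± 0.15 (adjusted p = 0.00121). For rps6kb1a they were 0.97 ± 0.13 for fluticasone propionate and -0.16 ± 0.16 for dexamethasone, a difference of 1.13 ± 0.21 (adjusted p = 0.00472). Leaving out the 7 libraries with over 28% of reads outside genes, 5 of fluticasone propionate and 2 of dexamethasone, left 15 genes called, and the adjusted p was then 0.00557 for fkbp5, 0.0196 for glulb and 0.00686 for rps6kb1a.

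Several leading genes of the trend gave no called difference between the compounds. The slopes of cyp27c1 were 0.83 ± 0.17 with fluticasone propionate and 0.57 ± 0.22 with dexamethasone, a difference whose 95% interval is -0.33 to 0.83 (adjusted p = 0.817). Those of enpp2l were 0.67 ± 0.14 with fluticasone propionate and 0.089 ± 0.17 with dexamethasone, with an interval of 0.13 to 1.03 (adjusted p = 0.345). Those of gstp1 were -0.52 ± 0.13 with fluticasone propionate and -0.0016 ± 0.15 with dexamethasone, with an interval of -0.93 to -0.11 (adjusted p = 0.354). The intervals are not adjusted for the number of genes, and these p-values do not show that the compounds act alike.

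**Figure D5:**
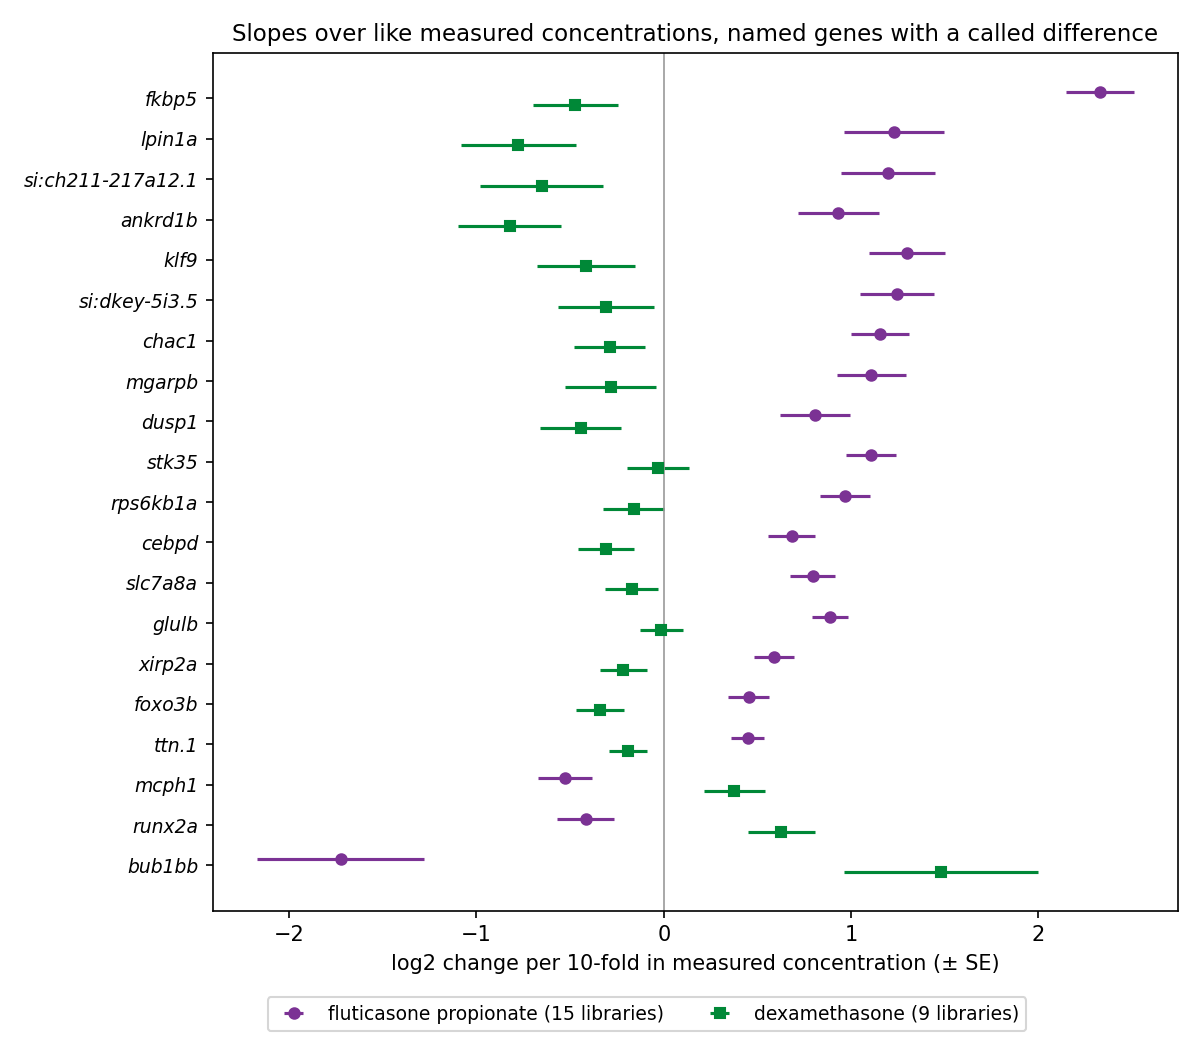
Slope of log2 expression per 10-fold in measured concentration with its standard error, for fluticasone propionate (circles, 15 libraries) and dexamethasone (squares, 9 libraries), in the 20 named genes whose slopes differed. The circles of fkbp5, lpin1a and klf9 lie above 0 and their squares below 0, and bub1bb, runx2a and mcph1 have the opposite order.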

How the data were processed

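Read counts per gene were measured by 3′ tag RNA-seq in pooled whole larvae. The deposited counts are whole numbers per gene, and STAR 2.7.10a, HTSeq 2.0.1, bcl2fastq 2.20.0, MultiQC 1.12, FastQC and edgeR are named, without their roles, per the submitters' processing notes. Libraries carried unique molecular identifiers, per the labels' protocols, but whether reads were collapsed by them, and the genome build, the sources used here do not state. The authors also deposited log2 values with measured concentrations in their first line. These match log2 CPM of edgeR recomputed from the counts to rounding error in 17877 genes, and they entered 1 alternative fit.

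The entries of HTSeq that name no gene were left out. The share of 22.6 to 32.1% counts only 1 of them, that of reads outside the counted features. Groups came from the sample labels. Genes passing a minimum count of 10 and a minimum total of 15 in edgeR 4.0.16 were scaled by TMM and tested with its quasi-likelihood test with robust dispersions (R 4.3.3), and p-values were adjusted by Benjamini-Hochberg over all genes tested at a threshold of 0.05. CPM values are TMM-scaled over the 27 libraries of fluticasone propionate and DMSO. Contrasts with the 3 lowest groups used a fit of all 8 groups. Midpoints came from isotonic regression of group means of log2 CPM (prior count 2), and differences from DMSO used log2 of CPM plus 0.5. The comparison with dexamethasone fitted both tables together, with a separate level and slope for each compound. Its design shares no libraries between the compounds. Alternatives used DESeq2 1.42.0, limma 3.58.1 and other filters, scales and libraries. The scripts were tested on simulated data.

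Named genes are the 10 rising and 10 falling with the smallest p, those called in the trends up to 0.06 µM and, up to 10 more, up to 0.1 µM, up to 4 called members of each list, all 23 tested receptor targets, and up to 5 per direction for curvature and slope difference. Genes without a symbol in the files or in RefSeq's gene table (fPimPro1.hap1.1, used for names only, where 3072 of 3943 LOC genes matched) were skipped. The members, lists and tests were chosen with earlier results of these data known. Replicate letters were not read as pairs. Depth limits the precision of genes with few reads, and reads of near-identical gene copies can be shared between them. How alike xirp2a and xirp2b, or any of the LOC genes, are in sequence was not examined. Sequences of genes were not used here.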

Additional observations from a re-analysis of the deposited data

Results flagged for a closer look

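In 20 named genes the slope on measured concentration differed between the compounds, and the difference itself was tested with edgeR's quasi-likelihood test. Fluticasone propionate minus dexamethasone, it was 2.80 for fkbp5, 2.01 for lpin1a, 1.85 for si:ch211-217a12.1, 1.75 for ankrd1b, 1.71 for klf9, 1.55 for si:dkey-5i3.5, 1.44 for chac1, 1.39 for mgarpb and 1.25 for dusp1. It was 1.13 for rps6kb1a, 1.13 for stk35, 0.99 for cebpd, 0.97 for slc7a8a, 0.90 for glulb, 0.80 for xirp2a, 0.79 for foxo3b and 0.64 for ttn.1. In the other direction it was -3.21 for the spindle checkpoint gene bub1bb, -1.05 for the bone transcription factor gene runx2a and -0.90 for the microcephalin gene mcph1. Without the libraries of letter A, B or C, 15, 15 and 12 of these 20 genes were not called, and none changed sign. Without the 7 libraries that stood apart 12 of these 20 were not called, and the 8 still called were cebpd, fkbp5, glulb, klf9, rps6kb1a, si:dkey-5i3.5, slc7a8a and stk35.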

How the results depend on the processing

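Slopes of 3 named genes that were not called changed sign in 6 alternatives: zbtb16b (0.026 without replicate C at 0.003 µM, and -0.23 to 0.12 without a letter), sgk1 (0.034 without replicate A at 0.006 µM, 0.020 without replicate A at 0.19 µM, and -0.088 to 0.088 without a letter) and nfkbiab (-0.015 to 0.076 without single libraries, below 0 without replicate B at 0.19 µM). In the following counts of called genes, the concentration is the end of a trend or the group set against the 3 lowest. With a covariate for reads that fell outside genes the trend called 420 genes, 157 falling, the shortened trends 51 up to 0.1 µM, 4 up to 0.06 and 0 up to 0.019 µM, and the contrasts 0 at 0.034, 6 at 0.06, 46 at 0.1 and 246 at 0.19 µM. Without the lowest concentration the trend called 139, 99 rising and 40 falling. With DESeq2 the shortened trends called 96, 24 and 28 up to 0.1, 0.06 and 0.034 µM, the contrast at 0.06 µM 5, and the slope difference 77. With no filter on low counts 5 were called up to 0.019 µM, and 81, 46, 40, 134 and 282 in the contrasts, low to high. Against the lowest group alone 4, 5, 10 and 72 were called at 0.034, 0.06, 0.1 and 0.19 µM, and in fits of the compared libraries alone 8 at 0.06 and 40 at 0.1 µM. Without the 5 libraries 2 and 0 were called up to 0.06 and 0.019 µM, and 0, 1 and 42 at 0.034, 0.06 and 0.1 µM, and the median falling midpoint was 0.0489 µM. On the measured scale curvature called 0 genes (by edgeR's test), and the median midpoints were 0.0129 µM rising and 0.0104 µM falling in measured units. Without isotonic regression the rising midpoint was 0.0390 µM. The slope difference called 15 without 7 libraries. The fits without 5 or 7 libraries, and the covariate in the shortened trends and contrasts, were chosen after seeing the data. The cause of these differences was not tested. Leaving out libraries, the trend called 92 to 304, with 50 to 207 rising and 21 to 98 falling. The lower ends come from leaving out a letter, which leaves 16 libraries. Without a letter the shortened trends called 8 to 17 up to 0.1 µM, 0 to 11 up to 0.06 µM, 0 to 119 up to 0.034 µM and 0 to 10 up to 0.019 µM. The contrasts called 0 to 66, 0 to 15, 1 to 5, 4 to 23 and 48 to 80, low to high, curvature 0 to 3 and the slope difference 11 to 19. Deviations of libraries with the same letter correlated between -0.136 and 0.262 over 84 pairs, 7 of them over 0.1, and 15 of 24 libraries correlated best with their own letter. The labels do not say that a letter marks a shared batch, and not every pair correlated over 0.1, so the letters were not read as pairs. With the letter as a replicate block the trend called 325, of which 277 were shared, the shortened trends 61, 14, 4 and 5 up to 0.1, 0.06, 0.034 and 0.019 µM, the contrasts 2 at 0.034 and 40 at 0.1 µM and the slope difference 40, and no named call was lost. Of 62 called named genes, leaving out letter A, B or C lost 30, 35 and 24, single-library fits lost up to 14, the trend without the lowest concentration 17, limma on the deposited log2 values lost 7, the contrast over group means 5, the fit with no filter 4 and the fit without the 5 libraries 3. Depth limits low genes such as ccnb1.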

Other observations

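Genes of ribosome biogenesis, which make and process ribosomal RNA in the nucleolus, were among the rising genes. This list was put together after values had been seen and was given no test. Of 77 members tested 9 rose and none fell, beside 1.11% of all genes rising, and 4 of the 9 were still called without the lowest concentration. Slopes of 63 were above 0, beside 8678 of 17701 over all genes tested, and the median slope was 0.15, against -0.0029. Their median log2 difference from the 3 lowest groups was 0.0042, 0.082, 0.13, 0.17 and 0.25 at 0.019, 0.034, 0.06, 0.1 and 0.19 µM. The RNA helicase gene ddx21 had a slope of 0.31 ± 0.058 (adjusted p = 0.00100, edgeR's quasi-likelihood test) and a midpoint of 0.0291 µM (range 0.0230 to 0.0331), and rrp12 had 0.35 ± 0.083 (adjusted p = 0.0123) and 0.0299 µM (0.0278 to 0.0350). The helicase gene ddx27 had 0.62 ± 0.13 (adjusted p = 0.00411) and a midpoint of 0.0703 µM (0.0496 to 0.0940), above both.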
